A study of Mus musculus with 8 samples.

Results

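The transcripts described here came from 10 genes that act on Wnt signalling outside the cell or at its surface: Dkk1, Dkk2, Dkk3, Kremen1, Sfrp1, Sfrp2, Sfrp4, Sfrp5, Frzb and Wif1. They were 10 of the 40840 genes in the deposited tables and were taken by name. The set was selected on the Dkk2 counts of these same libraries, which fell strongly after treatment, so the Dkk2 difference is given as a description without a test. Of the 10 genes, 7 had at least 10 counts over all libraries and entered the fit across genes, and Dkk1, Sfrp5 and Wif1 did not. Kremen1 encodes a membrane receptor for Dkk proteins rather than a secreted protein, and Dkk3 is a divergent Dkk family member.

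RNA was sequenced from primary myofibroblastic hepatic stellate cells (pMF-HSCs), liver pericytes that store vitamin A and that had become matrix-producing myofibroblasts in culture. All cells came from male wild-type C57BL/6J mice of 15 to 18 weeks, were sorted by retinol autofluorescence and cultured for 7 days. The control group (n = 4) received DMSO, and the OGTi group (n = 4) received 50 µM OSMI-1 for 24 h, an inhibitor of the O-GlcNAc transferase OGT, which attaches N-acetylglucosamine to intracellular proteins. Each replicate number was an independent experiment with a control and a treated culture, which the study paired. A single inhibitor, dose and time were measured in plastic-cultured cells, so an action of the compound outside OGT cannot be told apart from OGT inhibition in these libraries.

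Wnt proteins are secreted ligands that bind Frizzled receptors and, in the branch that stabilises β-catenin, the co-receptors LRP5 and LRP6. Dkk1 and Dkk2 bind these co-receptors, and Kremen proteins help to remove the resulting complex from the cell surface. The secreted Frizzled-related proteins (Sfrp1, Sfrp2, Sfrp4, Sfrp5 and Frzb, also called sFRP3) and Wif1 instead bind Wnt ligands themselves, and activated stellate cells are known to express Wnt ligands and receptors.

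The libraries held 30068881 to 37372423 estimated counts. The treated library of replicate 4 stood apart, with 23746 genes detected against 19035 to 20293 in the other 7. In the treated library of replicate 1, the shortest of 5 length classes of genes was raised by 0.60 and the next to longest and the longest were at -0.61 and -0.47 on the log2 scale, as medians relative to the other treated libraries. Dkk2, Kremen1 and Sfrp1 fell in the next to longest class, and Dkk3 and Frzb in the middle one. In all treated libraries the 10 most abundant genes took a larger share of counts (10.9% to 15.8%) than in any control (6.73% to 7.76%), and the TMM scaling factors were 0.874 to 1.062 against 1.044 to 1.105. Values without replicates 1 and 4 are therefore given below for Dkk2 and each called member. The stellate markers Des and Ecm1 and the myofibroblast markers Acta2 and Col1a1 were abundant in both groups, at 134 ± 11.5, 1684 ± 266, 2157 ± 439 and 741 ± 269 TPM (transcripts per 1e6 transcripts, mean ± SD, n = 4) in controls and 96.4 ± 24.9, 1727 ± 537, 1793 ± 410 and 417 ± 249 TPM in OGTi libraries. Among other stellate markers Pdgfrb, Lrat and Hgf fell, as given below. The Ogt transcript did not pass the test (log2 fold change -0.16 ± 0.24 SE, edgeR adjusted p = 0.714), and its level does not measure inhibition of the enzyme.

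Among the 10 genes, Frzb, Dkk3, Dkk2 and Kremen1 were above 1 TPM in every control library. Frzb was the most abundant at 469 ± 124 TPM, ahead of Dkk3 at 55.2 ± 23.6, Dkk2 at 14.6 ± 6.27 and Kremen1 at 7.67 ± 0.43 TPM (mean ± SD, n = 4). Frzb, Dkk3 and Dkk2 kept that order in every control library with no overlap between the ranges of neighbours. Dkk2 was above Kremen1 within each of the 4 control libraries, although the ranges of the genes touched. Sfrp1 was low at 0.63 ± 0.25 TPM, and the remaining 5 genes were each below 0.1 TPM on average. In OGTi libraries Frzb was still first at 141 ± 13.1 TPM and Dkk3 was at 22.8 ± 11.6 TPM, but Kremen1 at 2.91 ± 0.95 TPM now exceeded Dkk2 at 0.36 ± 0.27 TPM in each of the 4 libraries. Dkk2 and Sfrp1, at 0.31 ± 0.18 TPM, could not be ordered after treatment, since Dkk2 was higher in replicates 1 and 2 and lower in replicates 3 and 4. TPM scales for transcript length and library size, so only TPM values are compared between genes.

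**Figure D1:**
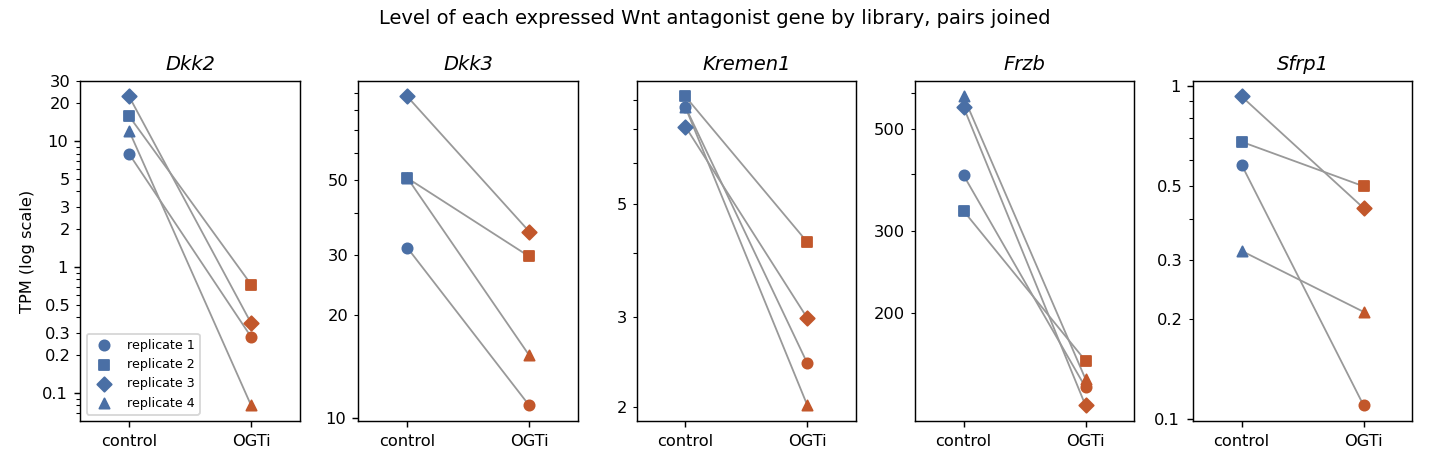
Level of the 5 more abundant genes in each library, in TPM on a log axis with a separate scale per gene. Symbols mark replicates, grey lines join the control (blue) and OGTi (orange) culture of a pair, and every line falls from control to OGTi. Control and OGTi ranges are apart for Dkk2, Kremen1 and Frzb and overlap for Dkk3 and Sfrp1.

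Dkk2, which encodes a secreted ligand of LRP5 and LRP6, lies at chr3:131790336-131886065 on the plus strand of GRCm39, with 4 exons in its canonical transcript. The 200 bases before the start of the canonical transcript are shown because Dkk2 is the gene the set was built around, and those of Kremen1 (minus strand) because it is the co-acting receptor that also fell. Capitals mark matches on either strand to the motif GGGCGG, known as the GC box and bound by Sp factors, to the motif CCAAT, bound by the factor NF-Y, or to the motif TATAAA, the usual form of the TATA box.
Dkk2, chr3:131790843-131791042: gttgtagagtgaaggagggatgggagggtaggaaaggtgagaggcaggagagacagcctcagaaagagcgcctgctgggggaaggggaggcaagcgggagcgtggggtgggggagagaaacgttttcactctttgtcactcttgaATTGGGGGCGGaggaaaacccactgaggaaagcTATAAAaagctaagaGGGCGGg
Kremen1, chr11:5211717-5211916: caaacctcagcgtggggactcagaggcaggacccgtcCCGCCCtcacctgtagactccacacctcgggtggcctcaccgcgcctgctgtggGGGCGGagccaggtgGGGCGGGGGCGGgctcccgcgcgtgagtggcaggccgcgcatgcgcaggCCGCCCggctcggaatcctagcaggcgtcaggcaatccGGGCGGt
The Dkk2 window also lies inside the annotated gene, in the first intron of another transcript that starts further upstream. In it the TATA match began 22 bases before the start, the GC boxes 50 and 7 bases before it, and the CCAAT match 55 bases before it, directly adjoining a GC box. The TATA letters occur in 9.57% of 21770 protein-coding promoters of this length, the CCAAT letters in 32.3% and the GC box in 34.8%. The Kremen1 window held 6 GC boxes and neither of the other motifs, with a GC content of 73.5% and 21 CpG dinucleotides, against 56.5% and 6 in Dkk2 and medians of 54.5% and 7 over all promoters. Its end nearest the start overlaps the annotated gene, which reaches 5211727. The GC box 7 bases before the start lies in that overlap. Frzb had 1 GC box and Dkk3 had none of these motifs, and their windows, which overlap transcribed first exons of other annotated transcripts, are not printed. The letters GGAATG (bound by TEAD factors), CTTTGA (TCF/LEF) and TGANTCA (AP-1) were in none of the 7 windows of the genes that entered the fit, and they occur in 9.48%, 11.3% and 4.93% of all promoters. A match or its absence in such a window is a description of letters only.

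Dkk2 was measured at 630, 1313, 1732 and 898 counts in control replicates 1 to 4 and at 29, 51, 30 and 6 counts in the matching OGTi libraries. The lowest control library was more than 10 times above the highest treated library, so the groups were far apart. In TPM, the controls were at 7.94, 15.85, 22.70 and 12.10, and the OGTi libraries were at 0.28, 0.73, 0.36 and 0.08. After scaling to a common library size, Dkk2 went from 1048 ± 434 to 31.7 ± 20.5 counts (mean ± SD, n = 4), with a fitted log2 fold change of -5.14 ± 0.44 (SE), which leaves 2.84% of the control level. The 4 pairs gave differences of -4.19, -4.29, -5.51 and -6.61 on the log2 scale (prior count of 2). The deepest fall was in replicate 4, whose treated library held only 6 Dkk2 counts. Without replicate 4 the fitted value was -4.71, without replicate 1 it was -5.42, and with the trend over gene length removed it was -4.90. On the scale of log2(TPM + 1) the same difference was -3.45, because the added 1 exceeds every treated level. In bulk RNA, fewer cells carrying the transcript and less transcript per cell cannot be told apart.

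Dkk3, whose product is not an established LRP ligand, lies at chr7:111712904-111758760 on the minus strand and has 8 exons. It held 2245, 3756, 6002 and 3369 counts in controls and 1001, 1870, 2602 and 1042 in OGTi libraries, corresponding to 31.60, 50.62, 87.86 and 50.70 TPM against 10.87, 29.77, 35.24 and 15.25 TPM. Every treated library was below its own control, but treated replicates 2 and 3 reached into the scaled range of control replicate 1, so the groups overlapped. Dkk3 fell, and the paired log2 fold change was -1.01 ± 0.21 (SE, 95% confidence interval -1.48 to -0.54, adjusted p = 0.00904 in the paired edgeR quasi-likelihood test with Benjamini-Hochberg adjustment over 19963 genes). This call rested on the pairing: without the replicate block the fold change was -0.98 with an edgeR adjusted p of 0.102. Without replicate 3 the value was -1.03 and the edgeR adjusted p just missed the threshold of 0.05 at 0.05005, and without replicates 1 or 4 the values were -1.01 and -0.86 and passed. With the trend over gene length removed the value was -0.82 (edgeR adjusted p = 0.0152).

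The spread of Dkk2 and Dkk3 over control cultures was alike in size, with coefficients of variation of 42.8% and 42.7% in TPM, and both were lowest in replicate 1 and highest in replicate 3. The ratio of Dkk3 to Dkk2 TPM was therefore narrow in controls, at 3.98, 3.19, 3.87 and 4.19 in replicates 1 to 4. In the OGTi libraries it was 38.8, 40.8, 97.9 and 191, so the relatives separated in all 4 pairs, as the choice of Dkk2 fixes in part.

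Dkk1, the founding LRP-binding inhibitor of the family, had 1 count in a single control library and 1, 2 and 1 counts in treated replicates 2, 3 and 4. These were at or below 3 counts, the limit that a count of 0 allows, equal to 0.0803 to 0.0998 CPM (counts per library total, scaled to 1e6). Dkk1 was thus not detectable above that limit in either group, and no fold is given. Limits of this kind cover counting error only, since sequenced fragments are not independent molecules.

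Kremen1, the transmembrane receptor that binds Dkk proteins, lies at chr11:5141548-5211727 on the minus strand and has 9 exons. Its counts were 828, 886, 719 and 774 in controls and 333, 368, 332 and 194 in OGTi libraries. Its TPM values were 7.74, 8.11, 7.08 and 7.73 against 2.43, 4.20, 2.98 and 2.01, so the groups did not overlap. Kremen1 was the steadiest gene of the set in controls, with a coefficient of variation of 5.59%, compared with 32.7% after treatment. It fell by a fitted log2 fold change of -1.17 ± 0.24 (SE, 95% confidence interval -1.70 to -0.63, edgeR adjusted p = 0.00864). The pairs differed by -1.15, -0.92, -0.85 and -1.73, and the call held in all 13 alternative settings, with values of -1.17 without replicate 1 and -0.97 without replicate 4 and adjusted p of at most 0.0497 (edgeR, DESeq2 or limma). With the trend over gene length removed, the fitted value was nearest to 0, at -0.88 (edgeR adjusted p = 0.0298).

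Frzb, the Wnt-binding member that carried most of the signal, lies at chr2:80242313-80278304 on the minus strand and has 6 exons. It held 24213, 21142, 32700 and 33528 counts in controls and 10868, 8475, 7971 and 8416 counts in OGTi libraries. In TPM the controls were at 397, 332, 558 and 588 and the treated libraries at 138, 157, 126 and 144. All treated libraries lay below all controls, and they lay closer together, with a coefficient of variation of 9.26% against 26.4% in controls. Frzb fell, at a fitted log2 fold change of -1.37 ± 0.21 (SE, 95% confidence interval -1.85 to -0.90, edgeR adjusted p = 0.00228). Pairs 1 and 2 differed by -0.997 and -0.974, and pairs 3 and 4, whose controls were highest, by -1.78 and -1.74. The fold change was -1.50 without replicate 1 and -1.24 without replicate 4, and the call held in all 13 alternatives. With the trend over gene length removed it was -1.23 (edgeR adjusted p = 0.00509). Ranked by TPM among all genes, Frzb stood between places 334 and 599 in controls and between 1055 and 1270 in OGTi libraries.

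**Figure D2:**
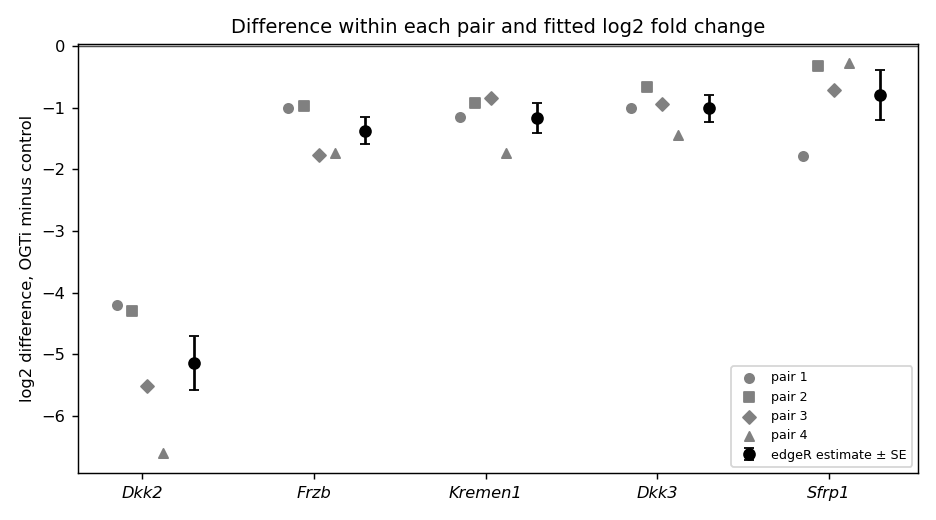
Difference between the OGTi and the control culture of each pair on the log2 scale (grey symbols) and the paired edgeR estimate with its standard error (black). Dkk2 lies between -4.19 and -6.61, while all pairs of Frzb, Kremen1, Dkk3 and Sfrp1 lie between -0.28 and -1.78.

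Sfrp1, a Wnt-binding protein, was measured at 55, 67, 84 and 28 counts in controls and at 13, 42, 42 and 19 counts after treatment. It was lower in each pair, but by unequal amounts of -1.78, -0.32, -0.71 and -0.28, and the groups overlapped. The fitted log2 fold change of -0.80 ± 0.41 (SE) did not pass the test (95% confidence interval -1.71 to 0.11, edgeR adjusted p = 0.212), and the interval includes falls as large as those of Dkk3 or Frzb. Without replicate 1, in which the difference was largest, the value was -0.46.

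Sfrp2 was near the limit of detection, with 3, 1, 5 and 2 counts in controls and 0, 0, 3 and 8 counts in OGTi libraries. Sfrp4 was found in 2 libraries only, with 11 counts in control replicate 2 and 14 counts in OGTi replicate 4. The fitted value of Sfrp4 ran from -4.36 to 4.90 on the log2 scale when single replicates were left out, so its direction was not determined. The edgeR adjusted p was 0.855 for Sfrp2 and 0.952 for Sfrp4. Sfrp5 had 1 and 2 counts in control replicates 2 and 3 and 1 count in OGTi replicate 3. Wif1 had 0 counts in all 8 libraries, which allows at most 3 counts in each. The secreted Frizzled-related signal of these cultures was therefore almost all Frzb.

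Among the 9 genes other than Dkk2, 6 entered the fit and 3 were called lower (Dkk3, Kremen1 and Frzb), while over all 19963 genes tested 18.4% were called, 10.2% as lower. None of the 6 was called higher by edgeR, nor by DESeq2 among the 4 that it gave an adjusted p, and none had an unadjusted edgeR p under 0.05 in that direction, against 8.13% called higher among all genes. Groups that did not overlap, with OGTi lower, were seen for Kremen1 and Frzb among the 6 and for 12.0% of all genes. The members were gathered with the Dkk2 result known, so these counts are a description.

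The summed level of the 10 genes was 445, 408, 677 and 659 TPM in control replicates 1 to 4 and 151, 193, 165 and 162 TPM in the OGTi libraries. The mean went from 547 ± 140 to 168 ± 17.6 TPM (SD, n = 4), and without Frzb from 78.3 ± 29.6 to 26.6 ± 12.5 TPM. TPM carries no TMM scaling, so these sums can fall further than fitted values do. Over all genes the median log2 fold change was -0.23 on the scale of log2(TPM + 0.1), against 0.01 in the main fit. For Frzb these settings gave -1.70 and -1.37. Frzb made up 85.6% ± 4.2 of the sum in controls and 84.4% ± 6.7 in OGTi libraries, a difference well within the spread. Dkk3 made up 10.04% ± 3.08 and 13.4% ± 6.4, and Kremen1 1.49% ± 0.45 and 1.71% ± 0.39, also within the spread. Dkk2 made up 2.71% ± 1.07 of the sum in controls and 0.21% ± 0.14 after treatment, with 1.78% as its lowest control share and 0.38% as its highest treated share.

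**Figure D3:**
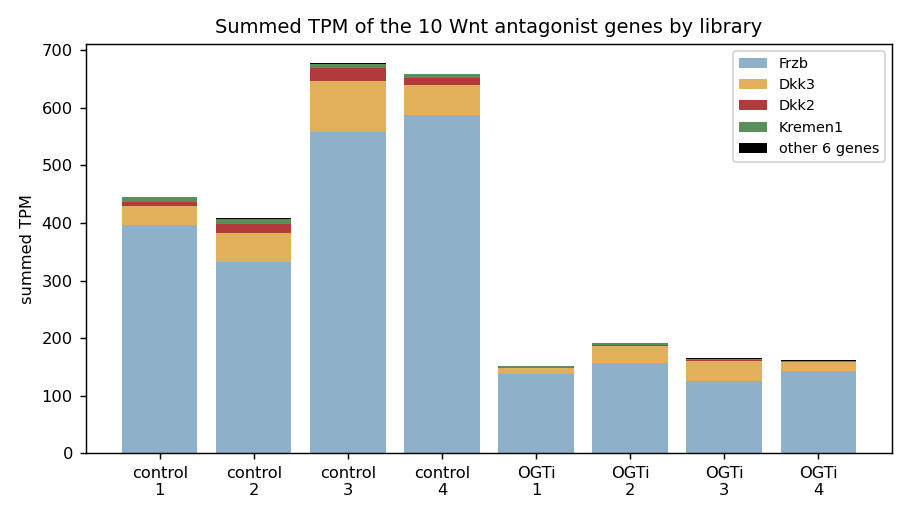
Summed TPM of the 10 genes in each library, stacked by gene. Frzb (light blue) forms 76.3% to 91.0% of every bar, the 4 OGTi bars end between 151 and 193 TPM, and the red Dkk2 layer seen in the controls is no longer visible.

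Among the 5 abundant members, the patterns of Kremen1 and Frzb over the 8 libraries were closest, with a root mean square difference of 0.39 in centred log2 CPM. Dkk3 and Sfrp1 differed by 0.44, and Dkk2 was 2.06 to 2.31 away from each of the other 4, a distance that restates the fall it was chosen for. Likeness to Dkk2 likewise depends mostly on an equally deep fall. Over 14799 genes with a mean of at least 10 scaled counts over the 8 libraries, the 5 closest to Dkk2 by this measure were Cyp26b1 (0.67), Cyp1b1 (0.74), Nrep (0.78), Dhrs3 (0.83) and Afap1l2 (0.86). Cyp26b1 encodes an enzyme that degrades retinoic acid and Dhrs3 a retinaldehyde reductase. Cyp26b1 had 2376 to 3041 scaled counts in controls and 72.4 to 326 in OGTi libraries, and Dhrs3 had 10780 to 20810 against 287 to 3475. The 5 genes closest to Frzb were Gm28863 (0.12), Id2 (0.15), Atp10d (0.15), Itfg2 (0.17) and Zfp974 (0.18). Id2, an inhibitor of basic helix-loop-helix transcription factors, had 3170 to 5207 scaled counts in controls and 1576 to 1855 in OGTi libraries.

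Of the nearest protein-coding neighbours of the 7 members in the fit, Mical2 beside Dkk3 and Tlr2 beside the scarcely detected Sfrp2 were called, both lower (Tlr2 -1.33 ± 0.33, edgeR adjusted p = 0.0213). Over all genes tested 18.4% were called, so the calls among neighbours are a description only. Papss1, 440.9 kb to the left of Dkk2, had a log2 fold change of -0.03 ± 0.20 (SE, edgeR adjusted p = 0.934), and Gimd1 on the other side, with 0 scaled counts in controls and 2.87 on average after treatment, was too low to compare. Next to Frzb, Dnajc10 and Nckap1 gave -0.67 ± 0.32 (edgeR adjusted p = 0.181) and -0.06 ± 0.41 (edgeR adjusted p = 0.947). Next to Kremen1, Znrf3, a ubiquitin ligase that removes Frizzled receptors, gave -0.66 ± 0.25 (edgeR adjusted p = 0.0945), and Emid1 gave 0.75 ± 0.62 (edgeR adjusted p = 0.454). Beside Dkk3, Mical2, 66.2 kb to the right, fell by 0.97 on the log2 scale (SE 0.30, edgeR adjusted p = 0.0482), and Usp47, 2.04 kb to the left, gave -0.24 ± 0.33 (edgeR adjusted p = 0.682).

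Other genes of the pathway were examined in 7 lists, of which 69 of 90 genes entered the fit, 16 were called lower and 1 higher (24.6% called, against 18.4% of all genes, 10.2% lower and 8.13% higher), with a median log2 fold change of -0.38 against 0.01 over all genes. Among other extracellular inhibitors, 0 of 8 tested genes were called by edgeR or DESeq2 (which gave no adjusted p for 2), with 0 higher and 1 lower at an unadjusted edgeR p under 0.05. Of 11 Wnt ligands 3 fell. Wnt5a, the ligand of highest control TPM, went from 28.5 ± 9.81 to 6.29 ± 3.21 TPM, and its log2 fold change was -1.89 ± 0.27. Wnt5b and Wnt2 also fell, with values of -2.40 ± 0.43 and -1.22 ± 0.31. Of the Wnt secretion genes and R-spondins 1 of 3 fell, namely Rspo3, a secreted amplifier of Wnt signalling (-2.23 ± 0.39). Of 16 receptor genes 5 fell, among them Ptk7 (-2.61 ± 0.36), Fzd6 (-2.16 ± 0.32), Ror1 (-1.37 ± 0.40) and Fzd2 (-1.33 ± 0.37). The co-receptors that Dkk proteins bind did not pass, with values of -0.08 ± 0.23 for Lrp6 and -1.06 ± 0.47 for Lrp5 (edgeR adjusted p = 0.859 and 0.156).

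Of 15 intracellular transducers 2 fell and 1 rose in the edgeR test, and DESeq2 called 2 lower and 4 higher. Amer1 (-2.40 ± 0.39) and Apc2 (-2.01 ± 0.60) fell, Csnk1e rose by 0.76 ± 0.20, and Ctnnb1, which encodes β-catenin, gave 0.47 ± 0.19 (edgeR adjusted p = 0.123). Ctnnb1 passed with DESeq2 (0.52, adjusted p = 0.0440) and with the trend over gene length removed (0.68, edgeR adjusted p = 0.0176). Of 8 TCF/LEF factors and co-activators 3 fell. Tcf7l2 (-1.28 ± 0.24) and Bcl9l (-1.05 ± 0.30) fell, and Pygo1 went from 49, 54, 26 and 29 counts to 3, 0, 0 and 0. Of 8 β-catenin target genes 2 fell, Ccnd1 (-2.22 ± 0.34) and Nkd2 (-1.74 ± 0.35). Myc, the target of highest control TPM, gave -0.20 ± 0.19 (edgeR adjusted p = 0.537), and passed only with limma-trend on log2(TPM + 1) and log2(TPM + 0.1), at -0.52 in both (adjusted p = 0.0475 and 0.0499). Axin2, a feedback target of the pathway, was at 0.03 ± 0.05 TPM in controls and 0.02 ± 0.02 TPM in OGTi libraries, too low to compare. The calls of Wnt2, Ror1, Fzd2, Apc2, Csnk1e and Bcl9l were lost without replicate 4, at edgeR adjusted p of 0.0615, 0.0628, 0.0784, 0.152, 0.0593 and 0.135, and each was also lost without at least 1 other replicate. Apc2, whose groups overlapped, was at -1.28 without replicate 3. With the trend over gene length removed, the calls of Apc2, Bcl9l, Fzd2 and Ror1 were lost as well (edgeR adjusted p = 0.0769, 0.0749, 0.0848 and 0.0891).

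**Figure D4:**
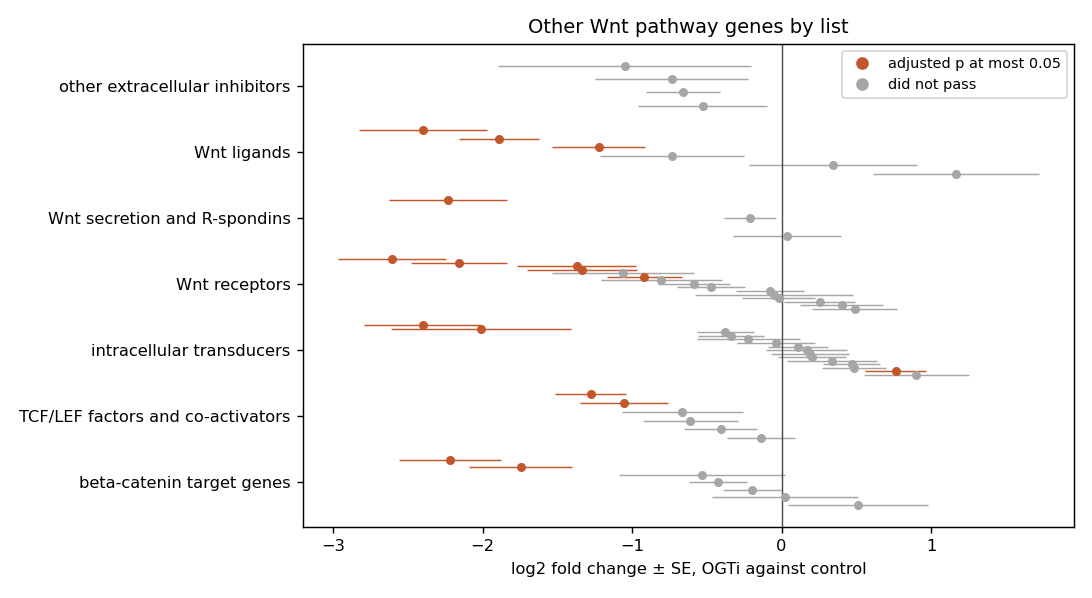
Log2 fold change (OGTi against control, ± SE) of 56 other Wnt pathway genes with a group mean of at least 10 scaled counts, by list, with genes that passed the edgeR test in orange. Of the orange points, all but Csnk1e in the intracellular transducers lie left of 0, and Pygo1, nearly absent after treatment, is left out.

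Marker lists of other liver cells moved to different degrees beside these results. Over all genes tested 10.2% were called lower and 8.13% higher, and the calls in these short lists are a description. The summed level of 8 portal fibroblast markers was 68.0 to 186 TPM in controls and 7.63 to 56.7 TPM in OGTi libraries, nearly all of it Fbln2, which fell. In that list 1 of 7 tested genes was lower and 0 were higher, and the defining markers Thy1 and Cd34 averaged 0.17 and 0.23 TPM in controls. The sum of 8 mesothelial markers was 87.3 to 141 TPM against 47.7 to 75.8 TPM, nearly all Krt19, which fell (-0.66 ± 0.20, edgeR adjusted p = 0.0462, 1 of 6 tested genes lower and 0 higher), with Msln and Upk3b below 1 TPM on average. Of 12 stellate markers 3 fell, Pdgfrb (-1.68 ± 0.24), Lrat (-1.78 ± 0.28) and Hgf (-2.13 ± 0.30), each further than Dkk3, Kremen1 or Frzb. Of 8 myofibroblast markers 0 were called by edgeR, with 2 higher and 3 lower at an unadjusted edgeR p under 0.05 and 1 higher and 1 lower by DESeq2, and Col1a1 was at -0.85 ± 0.30 (edgeR adjusted p = 0.0761). The sum of 8 endothelial markers was 1.57 to 3.23 TPM in controls and 0.36 to 1.02 TPM in OGTi libraries, with 2 of 8 tested genes lower (Tek and Lyve1) and Cdh5 and Stab2 below 0.1 TPM on average. Other lists held genes that rose: Cd68 among 7 tested macrophage markers (22.8 ± 8.82 to 50.6 ± 18.5 TPM), Sox9 among 5 cholangiocyte markers (1.298 ± 0.646 to 10.9 ± 8.90 TPM) and Cyp2e1 among 3 hepatocyte markers (0.05 ± 0.02 to 0.75 ± 0.37 TPM). Their summed levels were 49.8 to 169 against 87.5 to 226 TPM for macrophages, 175 to 537 against 74.5 to 497 TPM for cholangiocytes, nearly all Spp1, and 0.06 to 0.59 against 0.52 to 1.67 TPM for hepatocytes, whose markers Hnf4a and Tat had 0 counts in every library. Smooth muscle markers summed to 140 to 346 against 74.7 to 260 TPM, and 0 of 5 were called by edgeR or DESeq2 or had an unadjusted edgeR p under 0.05. The part of all these markers in the Wnt antagonist differences was not tested.

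**Figure D5:**
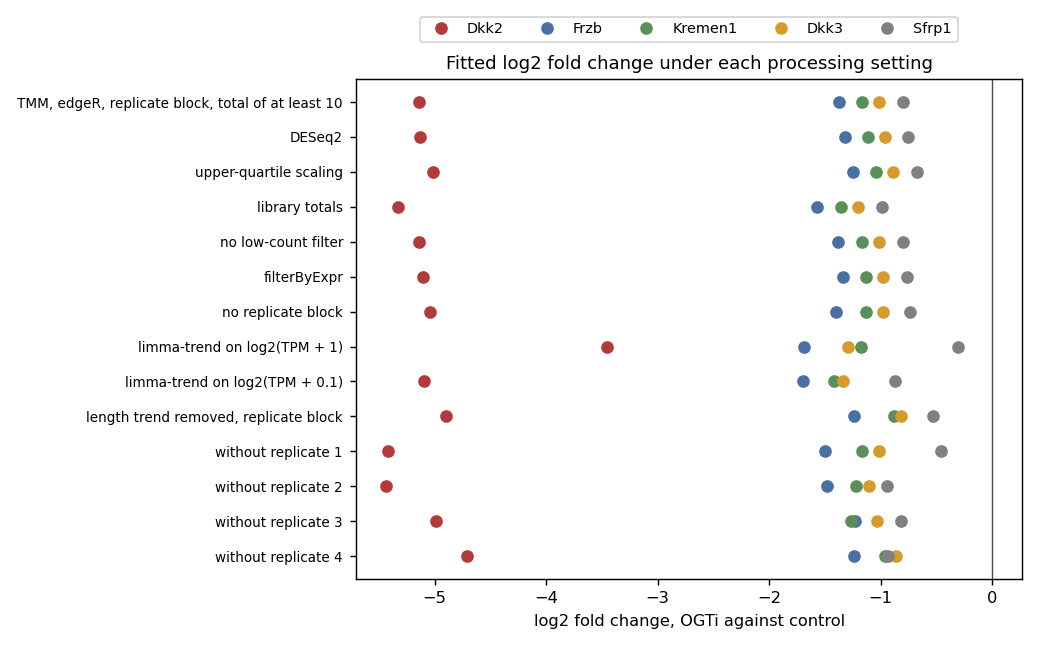
Fitted log2 fold change of 5 genes (colours) under the main setting (top line) and 13 alternatives. All values lie left of 0, Dkk2 stays at or below -4.71 except for -3.45 on the scale of log2(TPM + 1), and Sfrp1 lies nearest to 0 in 13 of the 14 settings.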

How the data were processed

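RNA of 4 control and 4 OGTi cultures was sequenced after oligo dT enrichment with a stranded kit. Per the labels, the authors aligned read pairs to mm39 (GRCm39) with Bowtie2 2.3.5.1 and estimated gene levels with RSEM 1.3.1 using strand. The deposited tables hold expected counts and TPM per gene, with a gene length that RSEM averaged over isoforms in each library, so TPM and counts can differ in fold. TPM also carries no TMM scaling, which is a further source of such differences. The authors' own comparison table, holding fold changes and p-values, was not used.

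Expected counts were rounded, and genes with a total of at least 10 were tested with edgeR 4.0.16 (R 4.3.3): TMM scaling, quasi-likelihood fit, replicate as a block, and Benjamini-Hochberg adjustment with a threshold of 0.05. The pairing came from the study's methods, and deviations of same-numbered cultures correlated at 0.213, 0.283, 0.180 and 0.401, while differently numbered ones ranged from -0.439 to 0.273, so 2 of these (0.273 and 0.183) exceeded a same-numbered value of the same library. Scaled counts are counts at the mean effective library size. Pair differences used log2 CPM with a prior count of 2. On simulated data for 18465 genes in this comparison, 30% of 2-fold and 98% of 4-fold changes were recovered. The changed genes, 100 of each size, were drawn from well-counted genes only, and 8 of 136 calls were false. No difference between replicates was simulated, so the rates may differ in the real data. They do not apply to scarcely counted genes such as Sfrp2 and Sfrp4. Alternatives were DESeq2 1.42.0, other scalings and filters, limma 3.58.1 (limma-trend) on log2(TPM + 1) and log2(TPM + 0.1), no block, a gene-length correction and leaving out replicates. Positions and windows came from GRCm39 with the GENCODE annotation.

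The members and gene lists were chosen with earlier results of these data known. The 10 members are given in full. From each pathway list the called genes were named up to the 4 of largest change with at least 10 scaled counts in a group, plus the most abundant gene of 5 lists. Genes like Dkk2 and Frzb were the 5 with the smallest root mean square difference over 8 libraries. Lrp5, Lrp6, Axin2, Znrf3, the neighbours and the marker genes were named outside this rule.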

Additional observations from a re-analysis of the deposited data

Results flagged for a closer look

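In 5 of 50 groups of 4 libraries, the highest library stood apart from the other 3 by more than Dixon's 95% limit, and chance alone gives about 1 in 20 groups. Sfrp4 had 9.67 scaled counts in control replicate 2 and 16.1 in OGTi replicate 4, with 0 in every other library. Rspo3 reached 4527 scaled counts in control replicate 3, with 2561 as the next highest control. Ptk7 reached 1727 scaled counts in the same control library, with 882 as the next highest. Pygo1 had 3.07 scaled counts (3 counts) in OGTi replicate 1 and 0 in the other treated libraries, which is no more than the limit that a count of 0 allows. For Sfrp4 and Pygo1 the measure is at its maximum whenever 3 of 4 libraries are at 0, so these 3 cases carry no information on how far the library stands apart. Dkk2 and Dkk3 were also highest in control replicate 3, but neither stood apart from its group by this measure.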

How the results depend on the processing

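Of the members, Frzb and Kremen1 stayed lower and called in all 13 alternatives, Dkk3 stayed lower and was called in 11, and Sfrp1 stayed below 0 without being called. Members called lower numbered 2 to 3 and members called higher 0 throughout. Without the pairing (no replicate block) 2 members were called, since the edgeR adjusted p of Dkk3 rose to 0.102, and 1459 genes were higher and 1532 lower overall. Dkk2 was at -3.45 with limma-trend on log2(TPM + 1), by the construction of that scale, and between -4.71 and -5.44 when replicates were left out. Over all genes, 1623 were called higher and 2043 lower. Leaving out replicates gave 843 to 1433 higher and 1062 to 1744 lower, and limma-trend on log2(TPM + 1) and log2(TPM + 0.1) gave 3456 and 3473 lower. Of other Wnt pathway genes, 16 were lower, and 10 to 13 when replicates were left out, with 10 without replicate 4, 11 with the length trend removed and 19 and 21 with limma-trend on log2(TPM + 1) and log2(TPM + 0.1). The 1 called higher became 4 with DESeq2, 2 with upper-quartile scaling or no low-count filter, 0 with library totals or limma-trend on either TPM scale, 3 with the length trend removed, and 0 to 2 without single replicates. The cause was not tested. Scaling by library totals moved the median of all genes to -0.19 and upper-quartile scaling to 0.13, and 30.1% and 54.2% of calls were then higher against 44.3%. Depth limits Dkk1, Sfrp2, Sfrp4, Sfrp5 and Wif1.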
